A study of Mus musculus with 8 samples.

Results

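The 9 genes described here are Atoh8, the 4 inhibitor-of-differentiation genes Id1, Id2, Id3 and Id4, the inhibitory Smads Smad6 and Smad7, the receptor-regulated Smad9 and the pseudoreceptor Bambi. They were taken by symbol from the expression table of 19301 genes, and each symbol matched 1 row. The genes were chosen with the contrast between the media already known, because Atoh8 had one of the largest increases, so their differences are given as a description, with no p-value, and nothing is read from how many of them passed a threshold. Primary tendon stem cells (TSCs) were isolated from the patellar tendon of C57BL/6J mice, and the labels give no genetic change in either group. They were cultured for 4 days in low glucose medium (LG, 5.5 mM glucose with DMSO) or in high glucose medium with 300 µM palmitic acid (HFHG), with 4 libraries per medium. The study asked how a disturbed supply of glucose and lipid changes these cells, in view of the ectopic bone that forms in tendons in diabetes. Glucose and palmitic acid were changed together, so their shares in a difference cannot be told apart.

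Bone morphogenetic proteins (BMPs) bind pairs of serine-threonine kinase receptors, which phosphorylate Smad1, Smad5 and Smad9. These Smads join Smad4, enter the nucleus and switch on a small set of direct targets, among them the Id genes, Smad6, Smad7 and, in several cell types, Atoh8. Smad6, Smad7 and Bambi damp the pathway that induces them, so they act as feedback inhibitors. Smad9, also called Smad8, carries the signal itself and is no inhibitory Smad. Id proteins are helix-loop-helix proteins that lack a DNA-binding region. They capture the E proteins, the common partners of the basic helix-loop-helix (bHLH) factors, and so hold back factors such as Scx, which directs tendon formation. Atoh8 is a bHLH factor of the atonal family.

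Of the 9 genes, 7 were at higher levels in every HFHG library than in any LG library, 1 (Smad7) was lower in every HFHG library, and 1 (Id2) overlapped between the media. Of all tested genes, 31.1% lay above and 28.1% below in this way. Atoh8 was at 5.76 ± 0.470 FPKM in HFHG and 0.386 ± 0.109 FPKM in LG (SD, n = 4 each), Id1 was 2.97 times as high and Id3 1.59 times as high. Levels are in FPKM, which are reads scaled by gene length and by the read total of the library, so they can be compared between genes. Genes entered the test when they reached 0.5 FPKM in at least 4 of the 8 libraries, which left 11710 genes and 7 of the 9 described here. Id4 and Smad9 reached that level in fewer than 4 libraries, and Atoh8 passed the filter through its HFHG libraries. A fold change is the HFHG minus LG difference of log2(FPKM + 0.1); for genes near 0 it is smaller than the change in FPKM itself.

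The read totals behind the FPKM, as recovered from the values, were 34308108 to 37362725 per library. Of each total, 99.82 to 99.85% lay on the genes of the expression table. On the first principal component, with 81.0% of the variance, the media separated, and the second, with 4.18%, set LG replicate 4 apart. In these bulk samples fewer cells of a type and less RNA per cell cannot be told apart. Tendon markers were present, 13 of 13 tested, with 10 higher and 2 lower in HFHG, beside 34.0% higher and 30.8% lower of all tested genes. Thbs4, Tnc and Col1a1 were higher by more than 1 on the log2 scale. The 2 lower markers were the tendon factor Mkx, at 6.73 ± 0.536 FPKM in HFHG and 8.62 ± 0.691 FPKM in LG (limma adjusted p = 0.00075), and Cd44. By qPCR the paper reports no significant change of Mkx in HFHG medium. The summed level of the list was 3514 to 3567 FPKM in HFHG and 2283 to 2300 FPKM in LG. Scx, Col1a1 and Eng also stand on other lists described here. Macrophage markers were present as well, with 9 of 10 tested, 8 of them lower in HFHG and Ptprc not called. Their sum was 1727 to 1776 FPKM in HFHG and 1897 to 1978 FPKM in LG, most of it Lyz2, followed by Cd68, and Cd163 was near 0 in both media. Endothelial markers summed to 1.68 to 1.84 FPKM in HFHG and 1.90 to 2.23 FPKM in LG, with 2 of 8 tested (Tek higher, and Vwf lower, which passed the filter through LG alone) and Pecam1, Cdh5 and Kdr below 0.2 FPKM on average. Of the muscle markers 1 was tested, Acta1, which was lower in HFHG, with the list at 1.17 to 2.64 FPKM in HFHG and 3.57 to 4.48 FPKM in LG, and Myod1 was at or near 0. Of the cartilage markers 2 were tested, Comp, which did not pass, and Col10a1, which was higher but did not reach 0.5 FPKM in every library. The cartilage list was at 6.29 to 7.14 FPKM in HFHG and 5.35 to 6.83 FPKM in LG, and Acan was near 0. The part of these other cell types in the differences of Atoh8, the Id genes and the Smads was not tested.

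Promoter sequences are shown for a set of 4 genes, to show which Smad and bHLH motif letters stand near the starts of genes that differed between the media (Atoh8, Id3, Smad6) and of one that overlapped (Id2). They run from 250 bases before to 50 bases after the RefSeq start on GRCm38.p6, read 5′ to 3′ along the gene's strand. RefSeq promoters were matched for 6 of the 9 genes (Atoh8, Id2, Id3, Id4, Smad6 and Smad9). Id1, Smad7 and Bambi were not matched. Capitals mark every match, on either strand, to the GC-rich Smad site GGCGCC, the palindromic Smad site GTCTAGAC, the Smad box GTCTG and the E-box CANNTG bound by bHLH dimers.
Atoh8, chr6:72235528-72235827, minus strand: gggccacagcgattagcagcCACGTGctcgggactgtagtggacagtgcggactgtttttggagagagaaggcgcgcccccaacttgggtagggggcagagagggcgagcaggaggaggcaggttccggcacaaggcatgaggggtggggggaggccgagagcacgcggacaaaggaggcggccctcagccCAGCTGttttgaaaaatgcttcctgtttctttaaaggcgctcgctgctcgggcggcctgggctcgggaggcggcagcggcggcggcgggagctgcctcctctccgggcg
Id2, chr12:25096043-25096342, minus strand: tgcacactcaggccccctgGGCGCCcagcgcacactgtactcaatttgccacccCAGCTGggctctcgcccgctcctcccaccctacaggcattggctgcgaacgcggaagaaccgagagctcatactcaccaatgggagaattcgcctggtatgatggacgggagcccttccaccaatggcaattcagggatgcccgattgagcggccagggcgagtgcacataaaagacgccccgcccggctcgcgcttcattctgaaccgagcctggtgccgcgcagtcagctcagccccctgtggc
Id3, chr4:136143572-136143871, plus strand: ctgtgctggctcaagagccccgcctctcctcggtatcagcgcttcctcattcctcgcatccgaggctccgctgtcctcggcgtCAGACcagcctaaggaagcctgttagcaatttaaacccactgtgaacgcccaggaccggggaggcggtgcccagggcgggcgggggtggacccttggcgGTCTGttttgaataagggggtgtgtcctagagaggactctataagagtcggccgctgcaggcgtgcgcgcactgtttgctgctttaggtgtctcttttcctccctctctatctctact
Smad6, chr9:64022010-64022309, minus strand: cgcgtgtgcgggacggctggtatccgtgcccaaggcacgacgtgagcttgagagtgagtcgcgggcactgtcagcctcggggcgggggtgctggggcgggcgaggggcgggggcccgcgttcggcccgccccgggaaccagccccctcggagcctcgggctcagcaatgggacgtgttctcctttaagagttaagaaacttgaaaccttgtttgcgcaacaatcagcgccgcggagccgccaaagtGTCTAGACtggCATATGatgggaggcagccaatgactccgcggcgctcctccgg

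The palindromic Smad site was found in the Smad6 promoter, where its first base lies at -4 from the RefSeq start, and in none of the other 5 promoters matched. The same letters occurred in 0.213% of 32851 mouse promoters of this length. The GC-rich site stood in the promoters of Id2, Id4 and Smad9, with its first base at -231, -148 and -51, against 11.9% of all promoters. Id3 held a Smad box at -167 and another at -68, a motif that 49.6% of all promoters hold. Atoh8 held an E-box of the form CACGTG at -230 and one of the form CAGCTG at -59, forms found in 7.15% and 16.3% of promoters. Id2 held the CAGCTG form as well, at -196. Smad6 and Smad9 held E-boxes of other forms, at 7 and -215. Any E-box was present in 72.3% of promoters. CACGTG and CAGCTG are both cases of CANNTG, so these matches are counted under both names. No Smad motif of these letters was found in the Atoh8 window. The Atoh8 promoter was 66.7% G and C, that of Id2 63.3%, that of Id3 60.0% and that of Smad6 66.3%, beside a median of 52.7% and an upper quartile of 61.7% over all promoters. Each match is a match of letters alone.

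Atoh8 lies at chr6:72206177-72235577 on the minus strand (GRCm38, GENCODE M21). Its level was 5.43, 6.01, 6.30 and 5.31 FPKM in HFHG replicates 1 to 4. In LG replicates 1 to 4 it was 0.285, 0.386, 0.336 and 0.537 FPKM. The lowest HFHG library was far above the highest LG library, so the groups did not overlap. The LG values came from 23 to 45 reads a library and the HFHG values from 457 to 534, as recovered from the deposited FPKM. The summed reads, 1970 in HFHG and 129 in LG, gave a rate ratio of 14.9, with a 95% exact interval of 12.5 to 17.9 that covers counting error only. On the log2 scale the difference was 3.62 (SE 0.14). Only 4 of the 11710 genes tested had a higher log2 fold change than Atoh8. LG replicate 4 had the highest LG value, and without it the ratio of the means was 17.2.

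**Figure D1:**
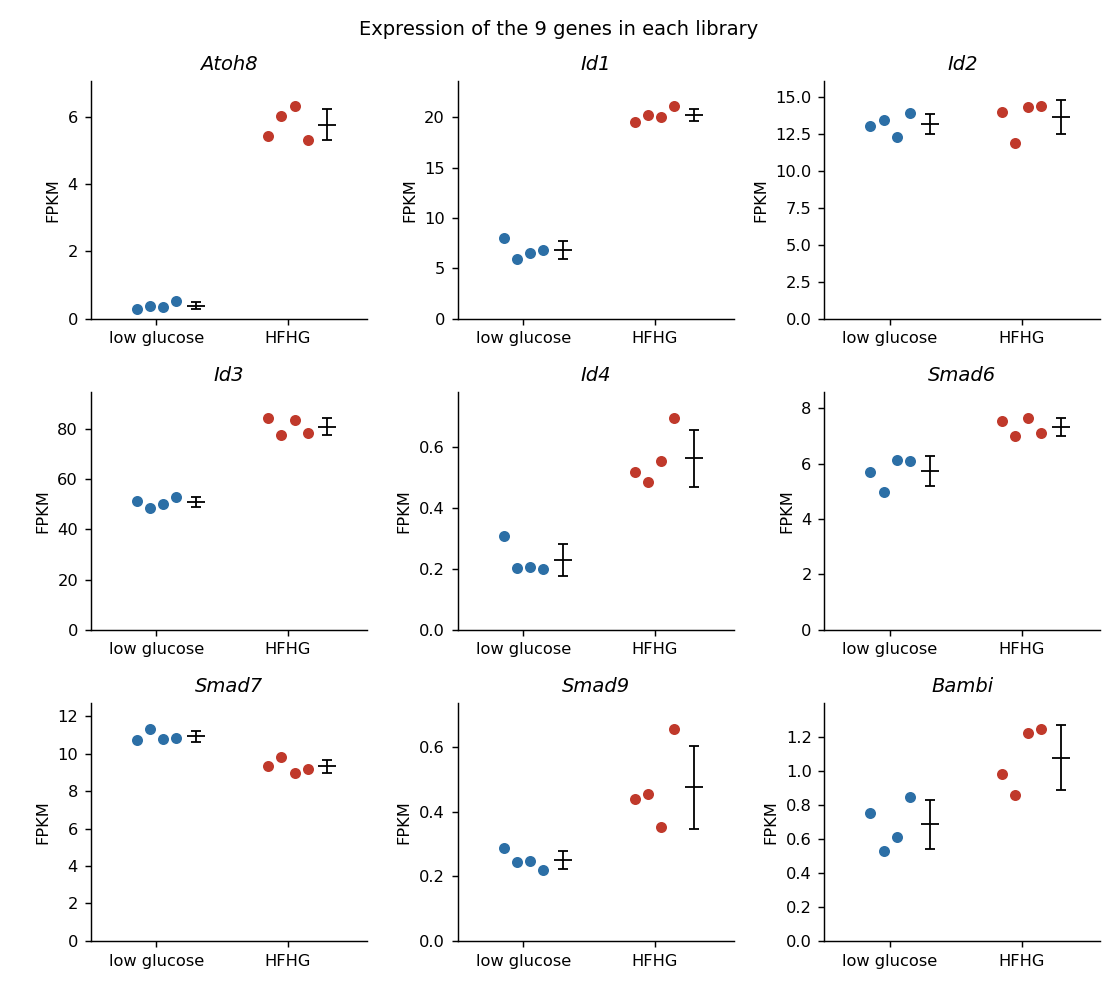
Expression of the 9 genes in FPKM (vertical axes, linear and starting at 0) in the 4 low glucose and 4 HFHG libraries; points are libraries, bars to their right the mean ± SD. Atoh8 lies between 5.31 and 6.30 in HFHG and between 0.285 and 0.537 in low glucose, Smad7 is the one gene with all HFHG points below, and Id2 overlaps.

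Id1, at chr2:152736251-152737410 on the plus strand, is the family member most often used to read out BMP signalling. It was measured at 19.5, 20.3, 20.1 and 21.1 FPKM in the HFHG libraries. In the LG libraries it was measured at 8.05, 5.90, 6.53 and 6.80 FPKM. All HFHG values were more than double the highest LG value, and the log2 difference was 1.56 (SE 0.075). In the tested set, 130 genes had a higher log2 fold change than Id1.

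Id3, at chr4:136143497-136145755 on the plus strand, had the highest level of the 9 genes in every library. Its HFHG values were 84.5, 77.5, 83.4 and 78.4 FPKM. The LG values were 51.5, 48.6, 50.2 and 53.1 FPKM, so the groups were well separated and the spread within each was small. The log2 difference was 0.67 (SE 0.037).

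Id2, at chr12:25093799-25097140 on the minus strand, was the Id gene that overlapped between the media. It was at 14.0, 11.9, 14.3 and 14.3 FPKM in HFHG and at 13.0, 13.4, 12.3 and 13.9 FPKM in LG. HFHG replicate 2 was the lowest of all 8 libraries, whereas the other 3 HFHG libraries were above every LG library. The log2 difference was 0.05, with a 95% interval of -0.09 to 0.19.

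Id4, at chr13:48261228-48266026 on the plus strand, is the Id gene best known from neural tissue and was scarce here. It stood at 0.520, 0.485, 0.554 and 0.697 FPKM in HFHG and at 0.309, 0.202, 0.206 and 0.199 FPKM in LG. The groups did not overlap, and LG replicate 1 lay above the other 3 LG libraries, which were nearly equal. Behind these values were 68 to 101 reads in HFHG and 28 to 42 in LG libraries. The rate ratio of the summed reads was 2.48, with an exact 95% interval of 2.01 to 3.06 for counting error.

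Summed over Id1 to Id4, the cells held 115 ± 3.96 FPKM in HFHG and 71.0 ± 2.81 FPKM in LG (SD, n = 4 each). The lowest HFHG sum was 110 and the highest LG sum 74.0. The make-up of this pool also differed. Id3 was its main component in both media, with 70.1% in HFHG and 71.6% in LG. Id1 made up 17.6% of the pool in HFHG and 9.58% in LG, and Id2 made up 11.8% and 18.5%. The ratio of Id1 to Id2 within a library is unchanged by a scaling factor applied to the whole library. It was 1.49 ± 0.144 in HFHG and 0.520 ± 0.076 in LG. Id1 was above Id2 in every HFHG library and below it in every LG library.

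E proteins, which the Id proteins bind, are encoded by Tcf3, Tcf4 and Tcf12. Tcf12 was lower in HFHG, at 9.34 ± 0.275 against 12.7 ± 0.591 FPKM (limma adjusted p = 3.1e-06). Tcf4 was higher, at 1.35 ± 0.074 against 1.01 ± 0.035 FPKM (limma adjusted p = 0.0030). Tcf3, the most abundant, was at 16.1 ± 0.072 and 15.2 ± 0.655 FPKM and did not pass (limma adjusted p = 0.078). Their sum was 26.7 ± 0.378 FPKM in HFHG and 28.9 ± 1.01 FPKM in LG. The ratio of the Id sum to the E protein sum was 4.31 ± 0.183 in HFHG and 2.47 ± 0.152 in LG, with no overlap between the groups. These are ratios of transcripts, and protein levels were not measured.

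**Figure D2:**
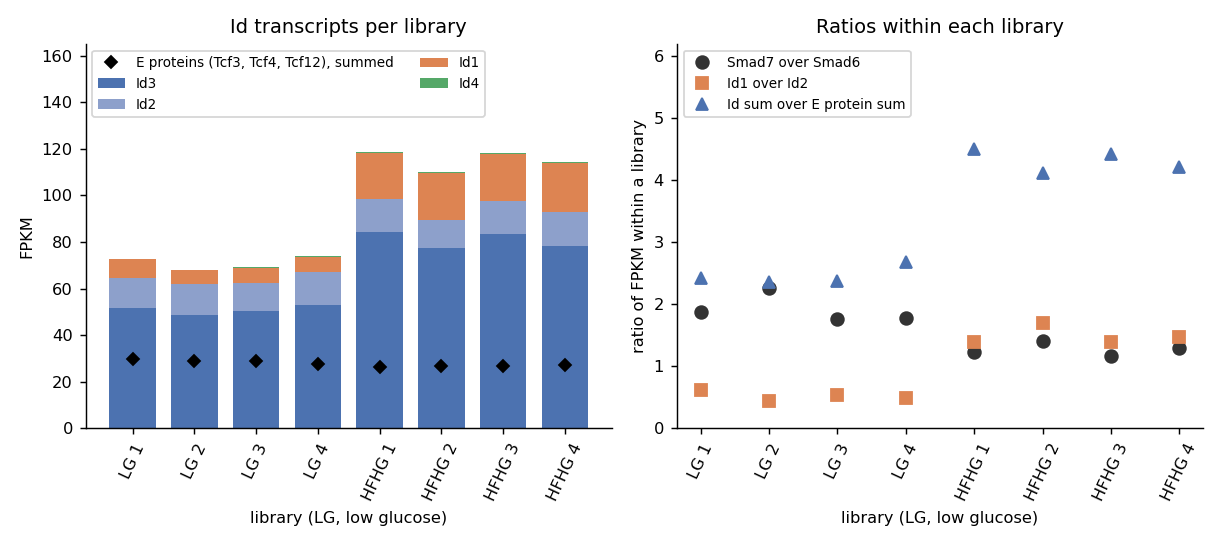
Left, FPKM of Id3, Id2, Id1 and Id4 stacked for each library, with the summed E proteins as diamonds; right, 3 ratios of FPKM within each library. The Id sum is 68.1 to 74.0 in LG and 110 to 119 in HFHG, and Smad7 over Smad6 is 1.17 to 1.40 in HFHG and 1.76 to 2.27 in LG.

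The inhibitory Smads went in opposite directions. Smad6, which preferentially blocks the BMP branch, lies at chr9:63953076-64022059 on the minus strand. Its level was 7.55, 6.997, 7.66 and 7.10 FPKM in HFHG, and in LG it was 5.71, 4.99, 6.15 and 6.10 FPKM. The lowest HFHG library was above the highest LG library, and the log2 difference was 0.35 (SE 0.069).

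Smad7, which blocks both the BMP and the TGF-beta branches, lies at chr18:75367529-75395935 on the plus strand. It was measured at 9.33, 9.81, 8.99 and 9.19 FPKM in HFHG. The LG libraries held 10.7, 11.3, 10.8 and 10.9 FPKM, all above the HFHG libraries. The log2 difference was -0.23 (SE 0.043), and the LG mean was 1.17 times the HFHG mean. Smad6 and Smad7 together summed to 16.7 ± 0.261 FPKM in HFHG and 16.7 ± 0.335 FPKM in LG. Within a library, Smad7 was 1.28 ± 0.097 times Smad6 in HFHG and 1.92 ± 0.239 times in LG, and the groups did not overlap.

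Smad9, at chr3:54755582-54801257 on the plus strand, was scarce in both media. Its level was 0.439, 0.455, 0.352 and 0.658 FPKM in HFHG and 0.289, 0.246, 0.248 and 0.219 FPKM in LG. HFHG replicate 4 was the highest, and HFHG replicate 3 was closest to the LG libraries without reaching them. From 78 to 148 reads in HFHG and 48 to 61 in LG libraries, the rate ratio was 1.91, with an exact 95% interval of 1.61 to 2.25 for counting error.

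Bambi, at chr18:3507923-3516404 on the plus strand, encodes a receptor-like membrane protein without a kinase domain. It had 0.980, 0.855, 1.22 and 1.25 FPKM in HFHG and 0.754, 0.528, 0.611 and 0.846 FPKM in LG. HFHG replicate 2 lay just above LG replicate 4, so the groups were separated by a narrow margin. The log2 difference was 0.59, with a 95% interval of 0.24 to 0.93, the widest of the 7 tested genes.

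**Figure D3:**
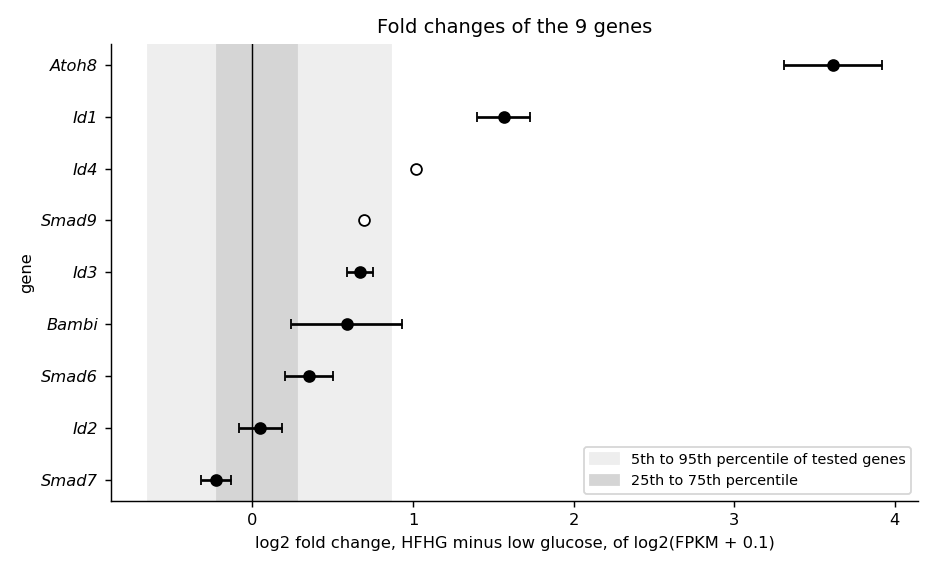
Log2 fold changes, HFHG minus low glucose, of log2(FPKM + 0.1) for the 9 genes; filled points carry 95% intervals from limma, open points are the 2 genes below the filter on low values, and grey bands cover the middle of the 11710 tested genes. Atoh8 at 3.62, Id1 at 1.56 and the open point of Id4 at 1.02 lie beyond the 95th percentile. Id2 at 0.05 lies in the middle band and Smad7 at -0.23 at its lower edge.

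Ordered by level in HFHG, the genes ran Id3, Id1, Id2, Smad7, Smad6, Atoh8, Bambi, Id4 and Smad9. In that order each gene's libraries were apart from those of the next, with the exception of Id4 and Smad9, which overlapped. In LG the order was Id3, Id2, Smad7, Id1, Smad6, Bambi, Atoh8, Smad9 and Id4. There Id1 overlapped with Smad6, Bambi with Atoh8, Atoh8 with Smad9, and Smad9 with Id4. Atoh8 thus shared the range of the scarcest genes in LG and stood close to Smad6 in HFHG, whereas Id1 moved from below Smad7 to above Id2.

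The media differed in a large part of the transcriptome, which is the background for these counts. At an adjusted p under 0.05 (limma, Benjamini-Hochberg over all tested genes), 34.0% of tested genes were higher in HFHG and 30.8% lower. By the same call, 5 of the 7 tested genes described here were higher, 1 was lower and Id2 was not called, and the number called was 6 with and without LG replicate 4. With a log2 fold change past 1 and an unadjusted p under 0.05, the share was 3.68% higher and 1.65% lower, and Atoh8 and Id1 were in the first group. All HFHG values lay above all LG values in 31.1% of tested genes and below them in 28.1%, and this was so for 5 and 1 of the 7. The median log2 fold change was 0.59 over the 7 genes and 0.02 over all tested genes. Since these genes were selected on this contrast, nothing is read from these counts.

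The other genes of the BMP pathway were examined as lists of 72 ligands, receptors, antagonists, Smads, Smad regulators and further BMP-responsive transcription factors. These lists, called BMP pathway genes here, also hold genes of the activin and TGF-beta branch, such as Inhba, Tgfbr3, Smad2, Smad3 and Tgif1. Of these, 49 were tested, 29 were higher in HFHG (59.2%), 9 were lower (18.4%) and 11 did not pass. Their median log2 fold change was 0.21. Bmp2, Gdf5, Gdf10 and Chrdl1 were under 0.5 FPKM in some libraries and passed the filter mainly through the medium in which they were higher, which favours a difference. Without these 4 genes, 26 were higher, 8 were lower and 11 did not pass.

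Among ligands, 8 of 9 tested genes were higher in HFHG and 1 was lower, and without Bmp2, Gdf5 and Gdf10 the count was 6 of 6 higher. Gdf6, a growth factor that can induce tendon and bone, rose from 3.67 ± 0.354 to 11.8 ± 0.433 FPKM (log2 difference 1.66, limma adjusted p = 4.1e-10). Gdf10, at 1.003 ± 0.048 FPKM in HFHG and 0.041 ± 0.019 FPKM in LG (log2 difference 2.97), passed the filter through its HFHG libraries alone, so no p is given. The most abundant ligand was Inhba, the activin A subunit, at 92.0 ± 2.21 FPKM in HFHG and 67.4 ± 4.93 FPKM in LG (limma adjusted p = 2.2e-06). Bmp6 rose from 7.86 ± 0.831 to 14.0 ± 0.367 FPKM (limma adjusted p = 1.6e-07). The ligand that was lower was Bmp2, the osteogenic BMP, at 0.480 ± 0.103 against 0.771 ± 0.108 FPKM, and it passed the filter mainly through LG.

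Of the 10 receptors and co-receptors tested, 6 were higher, 1 was lower and 3 did not pass, and none changed by more than 1 on the log2 scale. Endoglin (Eng), a co-receptor for BMP and TGF-beta ligands, rose from 35.5 ± 1.11 to 50.04 ± 1.58 FPKM (limma adjusted p = 4.6e-08). Tgfbr3, or betaglycan, the most abundant on the list, rose slightly, from 57.6 ± 1.33 to 60.9 ± 0.802 FPKM (limma adjusted p = 0.017). The lower one was Bmpr1b, a type I BMP receptor, at 3.63 ± 0.188 against 4.38 ± 0.233 FPKM (limma adjusted p = 0.0031).

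Secreted antagonists, which bind ligands outside the cell, were among the most abundant transcripts of the pathway, and 8 of 10 tested were higher, 1 was lower and 1 did not pass. Gremlin 1 (Grem1), a BMP antagonist and the most abundant of them, fell from 461 ± 26.9 to 279 ± 6.195 FPKM (limma adjusted p = 3.1e-09). Follistatin (Fst), which binds activins and several BMPs, rose from 1.72 ± 0.113 to 8.76 ± 0.295 FPKM, a log2 difference of 2.28 (limma adjusted p = 1.2e-11). The chordin-like antagonist Chrdl1 was at 1.03 ± 0.056 FPKM in HFHG and 0.439 ± 0.103 FPKM in LG, and it passed the filter mainly through HFHG. Summed over the 15 antagonists, the level was 782 to 806 FPKM in HFHG and 838 to 888 FPKM in LG, so the list as a sum was lower in HFHG while most of its tested genes were higher.

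The Smads that carry the signal also differed in their make-up. Smad1 fell from 10.5 ± 0.557 to 8.41 ± 0.446 FPKM (limma adjusted p = 0.00024), and Smad5 rose from 6.93 ± 0.365 to 8.64 ± 0.398 FPKM (limma adjusted p = 0.00024). Smad2 (4.22 ± 0.128 and 4.48 ± 0.121 FPKM in HFHG and LG), Smad3 (13.3 ± 0.075 and 13.1 ± 0.779 FPKM) and the common partner Smad4 (17.8 ± 0.243 and 16.9 ± 0.772 FPKM) did not pass. Of the summed BMP Smads, Smad1 made up 48.0% in HFHG and 59.3% in LG, Smad5 49.3% and 39.2%, and Smad9 2.70% and 1.42%. The changes of Smad1 and Smad5 offset each other in the sum of Smad1, Smad5 and Smad9, which was 17.5 FPKM in HFHG and 17.7 FPKM in LG.

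Of 12 genes for Smad turnover and corepression, 3 were higher, 5 were lower and 4 did not pass. Tgif1, a homeodomain corepressor of Smad2 and Smad3, fell from 29.0 ± 0.809 to 14.4 ± 0.770 FPKM (log2 difference -1.01, limma adjusted p = 4.7e-10). Smurf1, the ubiquitin ligase that targets Smad1 and Smad5, fell from 37.1 ± 0.672 to 24.2 ± 0.763 FPKM (limma adjusted p = 4.4e-09). Of the 12 further BMP-responsive transcription factors only 3 passed the filter on low values, and these 3 were higher. They were Tbx3, at 4.22 ± 0.291 against 1.89 ± 0.241 FPKM (limma adjusted p = 3.7e-07), Msx1 with a log2 difference of 0.70 (limma adjusted p = 0.0035), and Runx2, the master factor of bone formation, with 0.21 (limma adjusted p = 0.0057). Sp7, which acts after Runx2 in bone formation, was at 0.006 and 0.015 FPKM.

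Targets of the TGF-beta and Smad3 branch were set beside them, and of 13 tested 9 were higher, 2 were lower and 2 did not pass. Ltbp2, a matrix protein, rose from 18.6 ± 0.830 to 52.2 ± 0.906 FPKM and Col1a1, a type I collagen chain, from 206 ± 3.95 to 529 ± 8.68 FPKM (limma adjusted p = 3.4e-12 and 2.0e-13). The 2 lower genes were Bhlhe40 and Pmepa1, with log2 differences of -0.70 and -0.13 (limma adjusted p = 1.8e-09 and 0.0012).

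**Figure D4:**
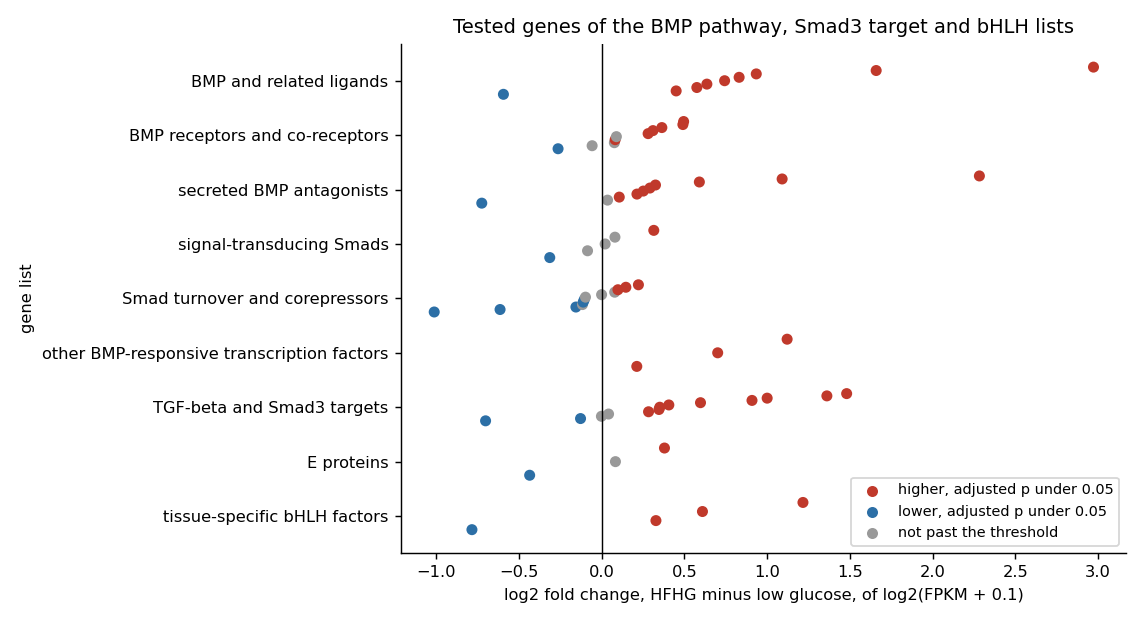
Log2 fold changes, HFHG minus low glucose, of log2(FPKM + 0.1) for each tested gene (points) of 9 gene lists; red and blue mark genes higher and lower at a limma adjusted p under 0.05 and grey those that did not pass. Of 9 ligands 8 lie to the right of 0, and of 12 turnover genes 5 are blue.

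Among the tissue-specific bHLH factors, which bind DNA as dimers with E proteins, 19 of 24 listed genes were in the table and 4 were tested. Twist2, a factor of mesenchymal cells, rose from 41.8 ± 1.52 to 97.2 ± 3.37 FPKM (log2 difference 1.22, limma adjusted p = 1.2e-11), and Twist1 rose from 26.2 ± 2.48 to 32.7 ± 0.809 FPKM (limma adjusted p = 0.00027). Scx, the tendon factor, rose from 1.45 ± 0.336 to 2.27 ± 0.558 FPKM (limma adjusted p = 0.014). The media overlapped for Scx, since its lowest HFHG library lay below its highest LG library. The paper reports the opposite direction by qPCR, with less Scx and less Tnmd in HFHG medium. Here the tendon marker Tnmd was at 1.10 ± 0.091 FPKM in HFHG and 0.614 ± 0.298 FPKM in LG (limma adjusted p = 0.016). For Tnmd every HFHG library was above every LG library, and LG replicate 1 was under 0.5 FPKM. The reason for these differences from the paper was not tested. Lyl1, a blood-cell factor, was at 0.310 ± 0.057 FPKM in HFHG and 0.611 ± 0.144 FPKM in LG, and it passed the filter through LG alone. In HFHG the level of Atoh8, 5.76 FPKM, was above that of Scx and below that of Twist1 and Twist2, and in LG it was below all 3. Atoh7, the other listed atonal gene in the table, was at 0 in HFHG and at 0.005 FPKM in LG.

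By Pearson correlation of log2(FPKM + 0.1) over the 8 libraries, the tested genes whose pattern was most like that of Atoh8 were Pamr1 (r = 0.999), Sap18 (r = 0.999), Synpo (r = 0.999), Sdc4 (r = 0.998) and Igfbp4 (r = 0.998). Pamr1 was 6.18 to 6.68 FPKM in HFHG and 1.65 to 2.07 FPKM in LG. The points are the same libraries in 2 separated groups, and 12.7% of tested genes had an r above 0.95 with Atoh8, so these values mostly restate the difference between the media.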

How the data were processed

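RNA of mouse TSCs (4 HFHG and 4 LG biological replicates, grouped by their labels; HFHG contains 25.5 mM glucose) was sequenced as stranded mRNA libraries. The authors deposited FPKM values for 19301 genes, with replicates not pooled. The submitters' processing notes name HISAT2 2.1.0 and mm10; the counting program, annotation and strand setting are not given in the sources used here, so reads of overlapping genes may be shared. No per-sample column was left unused (0).

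Whole reads were recovered from the FPKM for 19300 genes (99.99%, relative tolerance 1e-09). FPKM were tested as log2(FPKM + 0.1) with limma 3.58.1 in R 4.3.3 (moderated, with trend) on 11710 genes with at least 0.5 FPKM in at least 4 libraries, with Benjamini-Hochberg adjustment. The script was tested on simulated data. Intervals on reads are exact conditional Poisson (95%) and cover counting error only. Gene positions are from GENCODE M21.

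The genes and gene lists were chosen with earlier results of these data known. From each list, genes past 1 on the log2 scale were named, or otherwise the 2 most abundant; all 5 signal-transducing Smads and all 3 E proteins were named. Bmp2, Bmp6, Inhba, Bmpr1b, Grem1, Smurf1, Msx1, Runx2, Sp7, Bhlhe40, Pmepa1, Twist1, Scx, Lyl1, Atoh7, Ptprc, Cd163, Tek, Pecam1, Cdh5, Kdr, Myod1, Acan, Gdf5, Mkx, Tnmd and Cd44 were named after their values were seen. The alternatives were other pseudocounts, filters and scalings, robust moderation, limma-voom on the recovered reads, a replicate block and leaving out each library. The labels do not say whether same-numbered libraries were paired. Deviations of same-numbered libraries correlated at -0.0736 to -0.00558. These values show no sign of pairing by number, but they cannot exclude a shared origin of the cells. The recovered read totals were 34308108 to 37362725 per library.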

Additional observations from a re-analysis of the deposited data

Results flagged for a closer look

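Of the 18 groups of 4 libraries examined for the 9 genes, 2 held a library far from the other 3, where chance gives about 1 group in 20. Id2 was at 11.9 FPKM in HFHG replicate 2, while the other HFHG libraries were at 14.0 to 14.3, and the gap was 0.854 of the group's range. Without that library the log2 difference of Id2 was 0.11, and it was still not called. Id4 was at 0.309 FPKM in LG replicate 1, with the other LG libraries at 0.199 to 0.206, and the gap was 0.928 of the range. Without that library the log2 difference of Id4 was 1.13.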

How the results depend on the processing

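The fold changes and the counts of calls were computed under 18 alternatives, 8 of which left out 1 library (17 for Bambi and 14 for Id4 and Smad9, which are below some filters), and no fold change of the 9 genes changed sign. The pools, ratios, correlations and motif matches were not recomputed. Atoh8, Id1, Id3, Smad6 and Smad7 were called and Id2 was not in each fit, which is no independent support since the genes were chosen on this contrast. The number called among the 9 genes was 6 in the main setting, 5 with a filter of 1 FPKM, which Bambi did not pass, and 8 with no filter, where Id4 and Smad9 entered. The log2 difference of Atoh8 ranged from 2.29 with a pseudocount of 1 to 3.91 over the alternatives, and from 3.51 to 3.75 when 1 library was left out. With a pseudocount of 1 the differences of Id4, Smad9 and Bambi were 0.35, 0.24 and 0.30, since it outweighs low values. The difference of Smad7 was -0.23 in the main setting and -0.17 with FPKM rescaled to the same sum, so its size depended on the scaling. The number of all genes with a log2 fold change past 1 and p under 0.05 was 624, and with a pseudocount of 1 it was 303. Of all calls, 52.5% were higher in HFHG, 60.9% with FPKM rescaled to the same sum, 46.7% with median-ratio scaling and 47.3% with quantile normalization, so the balance of higher and lower calls over all genes turned with the scaling. Of the BMP pathway genes, 25 to 32 were called higher and 6 to 10 lower. With the replicate block, 6 of the 9 genes, 28 BMP pathway genes higher and 8 lower were called, and 7342 genes in all, so the block changed no count by over 1.5 times. The precision of Id4, Smad9 and Atoh8 in LG is limited by depth, at 23 to 61 reads a library.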
